A study of Mus musculus with 7 samples.

Results

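Chemokines are small secreted proteins that draw leukocytes along a concentration gradient, and they act through G protein-coupled receptors on the cells that respond. The mouse genes that encode both sides of this system were read from lung RNA-seq profiles: every gene whose symbol is Ccl, Cxcl, Ccr, Cxcr or Ackr followed by a number and an optional letter, plus Cx3cl1, Cx3cr1, Xcl1, Xcr1, Pf4 and Ppbp. The rule gave 58 of the 22447 genes in the files, 39 ligands and 19 receptors. Expression is in FPKM, a fragment count scaled by transcript length and by library size.

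The 7 libraries fall into 3 groups. Lung tumors from mice that overexpress EZH2, the catalytic subunit of the Polycomb repressive complex that methylates histone H3 on lysine 27, gave 3 libraries (OE tumor). Normal lung with the same EZH2 overexpression genotype gave 2 libraries (OE normal), and lung of wild-type mice gave 2 libraries (WT). The sources used here give neither the promoter that drives EZH2 and the cells that express it nor the age and number of the mice, so each p-value reflects only how far these libraries scatter, which may be technical. The labels name lung tissue as the source, while their growth text describes minced tumor nodules kept in culture, and they do not say which of these gave the tumor RNA. In bulk RNA, fewer cells of a type and less RNA per cell cannot be told apart.

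Chemokines are usually ordered by the cells they attract. Those with receptors Cxcr1 and Cxcr2 draw neutrophils, ligands of Ccr1, Ccr2 and Cx3cr1 draw monocytes and macrophages, the interferon-induced ligands of Cxcr3 draw effector T and NK cells, and the ligands of Ccr7 and Cxcr5 draw lymphocytes into lymphoid tissue. A further group of scavenging receptors binds chemokines without G protein signalling and removes them. Inflammatory ligands are switched on through binding sites for NF-kB and for interferon-activated factors in their promoters, whereas the homeostatic ligands are made constantly by stroma, endothelium and epithelium.

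The promoters of 4 inflammatory ligands are shown because their genes lie on the same chromosome and did not move alike in the tumors. Every tumor library lay above OE normal lung for Cxcl1 and Cxcl3 and below it for Cxcl10, but only Cxcl10 was called there. Against WT lung Cxcl1 and Cxcl3 were called higher and Cxcl10 was not called. Each run is the 250 bases before the annotated start, 5′ to 3′ on the coding strand, from RefSeq on build GRCm38.p6. Capitals mark NF-kB motifs (GGGA, any 2 bases, then TTCC) in all 4 promoters and, nearest the 5′ end of the Cxcl10 promoter, an interferon-stimulated response element (ISRE: GAAA, any 2 bases, then GAAA), both searched on both strands. The Cxcl1 run is chr5:90890995-90891244 on the plus strand, the Cxcl2 run is chr5:90903649-90903898 on the plus strand, the Cxcl3 run is chr5:90785851-90786100 on the plus strand, and the Cxcl10 run is chr5:92348890-92349139 on the minus strand.
Cxcl1: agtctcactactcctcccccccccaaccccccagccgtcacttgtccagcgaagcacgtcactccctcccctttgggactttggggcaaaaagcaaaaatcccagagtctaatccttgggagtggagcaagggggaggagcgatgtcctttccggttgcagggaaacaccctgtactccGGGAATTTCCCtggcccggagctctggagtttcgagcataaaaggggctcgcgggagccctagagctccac
Cxcl2: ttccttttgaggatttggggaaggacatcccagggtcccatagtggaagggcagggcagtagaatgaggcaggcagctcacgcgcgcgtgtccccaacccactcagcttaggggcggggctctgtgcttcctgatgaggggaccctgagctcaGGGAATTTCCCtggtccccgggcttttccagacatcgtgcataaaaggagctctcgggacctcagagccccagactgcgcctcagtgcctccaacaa
Cxcl3: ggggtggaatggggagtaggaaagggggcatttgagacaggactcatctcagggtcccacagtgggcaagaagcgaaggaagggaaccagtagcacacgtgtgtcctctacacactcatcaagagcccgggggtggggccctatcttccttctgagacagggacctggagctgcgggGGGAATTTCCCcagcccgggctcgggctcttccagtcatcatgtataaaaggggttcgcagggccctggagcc
Cxcl10: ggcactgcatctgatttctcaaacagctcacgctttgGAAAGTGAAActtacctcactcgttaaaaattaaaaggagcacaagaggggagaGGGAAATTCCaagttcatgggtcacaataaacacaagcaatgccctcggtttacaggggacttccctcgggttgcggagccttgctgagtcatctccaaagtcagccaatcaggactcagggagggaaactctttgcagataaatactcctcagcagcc

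Cxcl1, Cxcl2 and Cxcl3, which encode neutrophil attractants, held the same 11-base run in capitals, which reads as a match on each strand with an overlap. It began 71 bases before the start in Cxcl1, 97 bases before it in Cxcl2 and 73 bases before it in Cxcl3. In Cxcl10 the ISRE began 213 bases and the NF-kB motif 159 bases before the start. Among the 42 members with a promoter in the table, 6 held the NF-kB motif (Ccl1, Ccr3, Cxcl1, Cxcl2, Cxcl3 and Cxcl10), against 1.21% of all 32851 promoters of this length. The ISRE was found in 3 members (Ccl19, Cxcl10 and Cxcl14), against 2.98% of all promoters. The GAS motif of STAT factors (TTC, any 3 bases, then GAA) was found in 3 members (Ccl17, Ccr6 and Cxcl14), against 7.02% of all promoters. These matches describe letters in the window only.

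Tumor libraries held 12028 to 12625 genes at 1 FPKM or more, against 13203 to 13567 in the 4 normal lung libraries, and the relative depth of the other 6 libraries, read from the steps of low values, was 1.20 to 1.87 times that of OE tumor 1. Ezh2, the overexpressed gene, had 8.48, 23.5 and 22.6 FPKM in OE tumors 1, 2 and 3 and 10.2 and 11.5 FPKM in OE normal lung, against 3.72 and 2.58 FPKM in WT lung. Genes of lung epithelium (Nkx2-1, Sftpb, Sftpd, Lamp3 and Napsa) summed to 5625 to 9017 FPKM in OE tumors, 1322 to 2003 FPKM in OE normal lung and 1692 to 2211 FPKM in WT lung, so every group carried lung markers. OE tumor 1 stood apart from tumors 2 and 3: among the 45 members tested, both of these lay below OE tumor 1 for 29 genes (64.4%) and above it for 6 (13.3%), against 55.3% and 36.2% of all genes tested. Xist and Eif2s3y placed OE tumor 1, OE normal 1 and both WT libraries as male and the other libraries as female. Some strongly expressed genes, Sftpc and Scgb1a1 among them, were listed at exactly 0 in single libraries, so a 0 in these files can be a failed estimate.

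Against OE normal lung, the tumors held less of most chemokine and receptor transcripts. In a limma fit of log2(FPKM + 1) over the 14057 genes that reached 1 FPKM in 2 or more of the 7 libraries, 23 of the 45 members tested were called lower in OE tumors than in OE normal lung at a Benjamini-Hochberg adjusted p below 0.05, a share of 51.1% beside 24.9% of all genes. Only 2 members, Ccl17 and Pf4, were called higher, a share of 4.44% beside 13.1% of all genes. The median member differed by -1.36 on the log2(FPKM + 1) scale, beside -0.11 for all genes tested. The ligands gave 2 higher and 16 lower calls of 32, and the receptors 0 higher and 7 lower calls of 13. In 27 members every tumor library lay below both OE normal libraries (60.0%, beside 35.9% of all genes), and in 5 members (Ccl17, Ccl6, Cxcl1, Cxcl3 and Pf4) every tumor library lay above them (11.1%, beside 25.0%).

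Against WT lung the picture was split. There 8 members were called higher in OE tumors (among them Ccl17, Ccl6, Ccr2, Cx3cr1, Cxcl1, Cxcl3 and Pf4; 17.8%, beside 15.0% of all genes) and 9 were called lower (Ccl19, Ccl21a, Ccr6, Cx3cl1, Cxcl12, Cxcl16, Cxcl17, Cxcr3 and Cxcr7; 20.0%, beside 23.2%). Both shares lie near those of all genes, so the number of calls against WT lung did not set the members apart. The median member differed by -0.28, beside -0.06 for all genes. Tumor and WT libraries did not overlap for 13 members that were higher (28.9%, beside 28.9% of all genes) and 14 that were lower (31.1%, beside 35.0%). The 9 genes called lower than in WT lung were also called lower than in OE normal lung, and Ccl17 and Pf4 were higher in both comparisons, which share the tumor libraries.

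**Figure D1:**
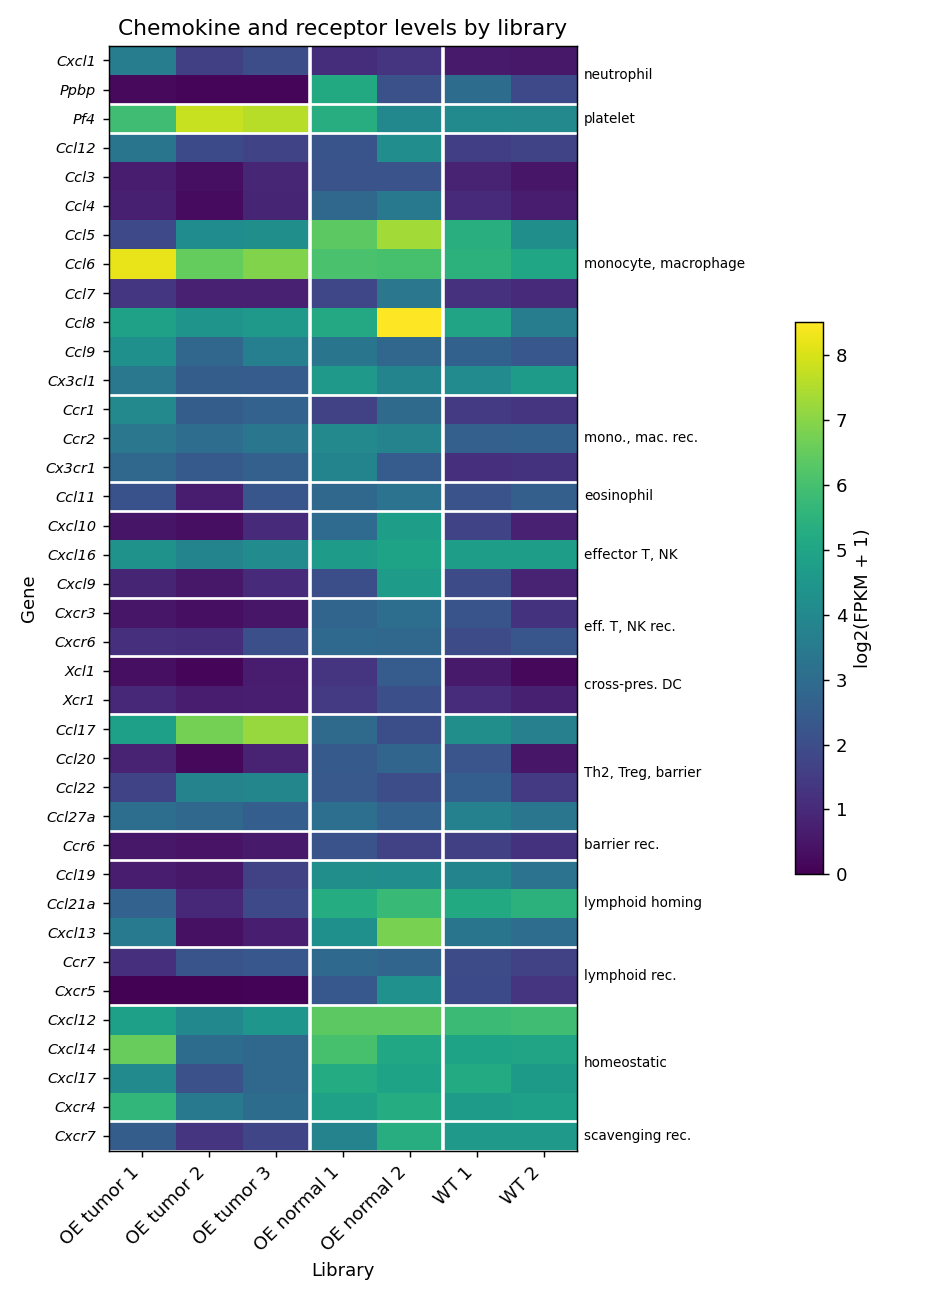
Levels of 38 chemokine and receptor genes in the 7 libraries, as log2(FPKM + 1) by colour; genes run down the page by the cell they attract, and white lines part the groups OE tumor, OE normal and WT. Pf4 and Ccl17 are brightest in the OE tumors, and Ccl19, Ccl21a and Cxcr5 are dark there. Cxcl12 is darker in the OE tumors than in the normal libraries, and Ccl8 and Cxcl13 are brightest in OE normal 2.

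**Figure D2:**
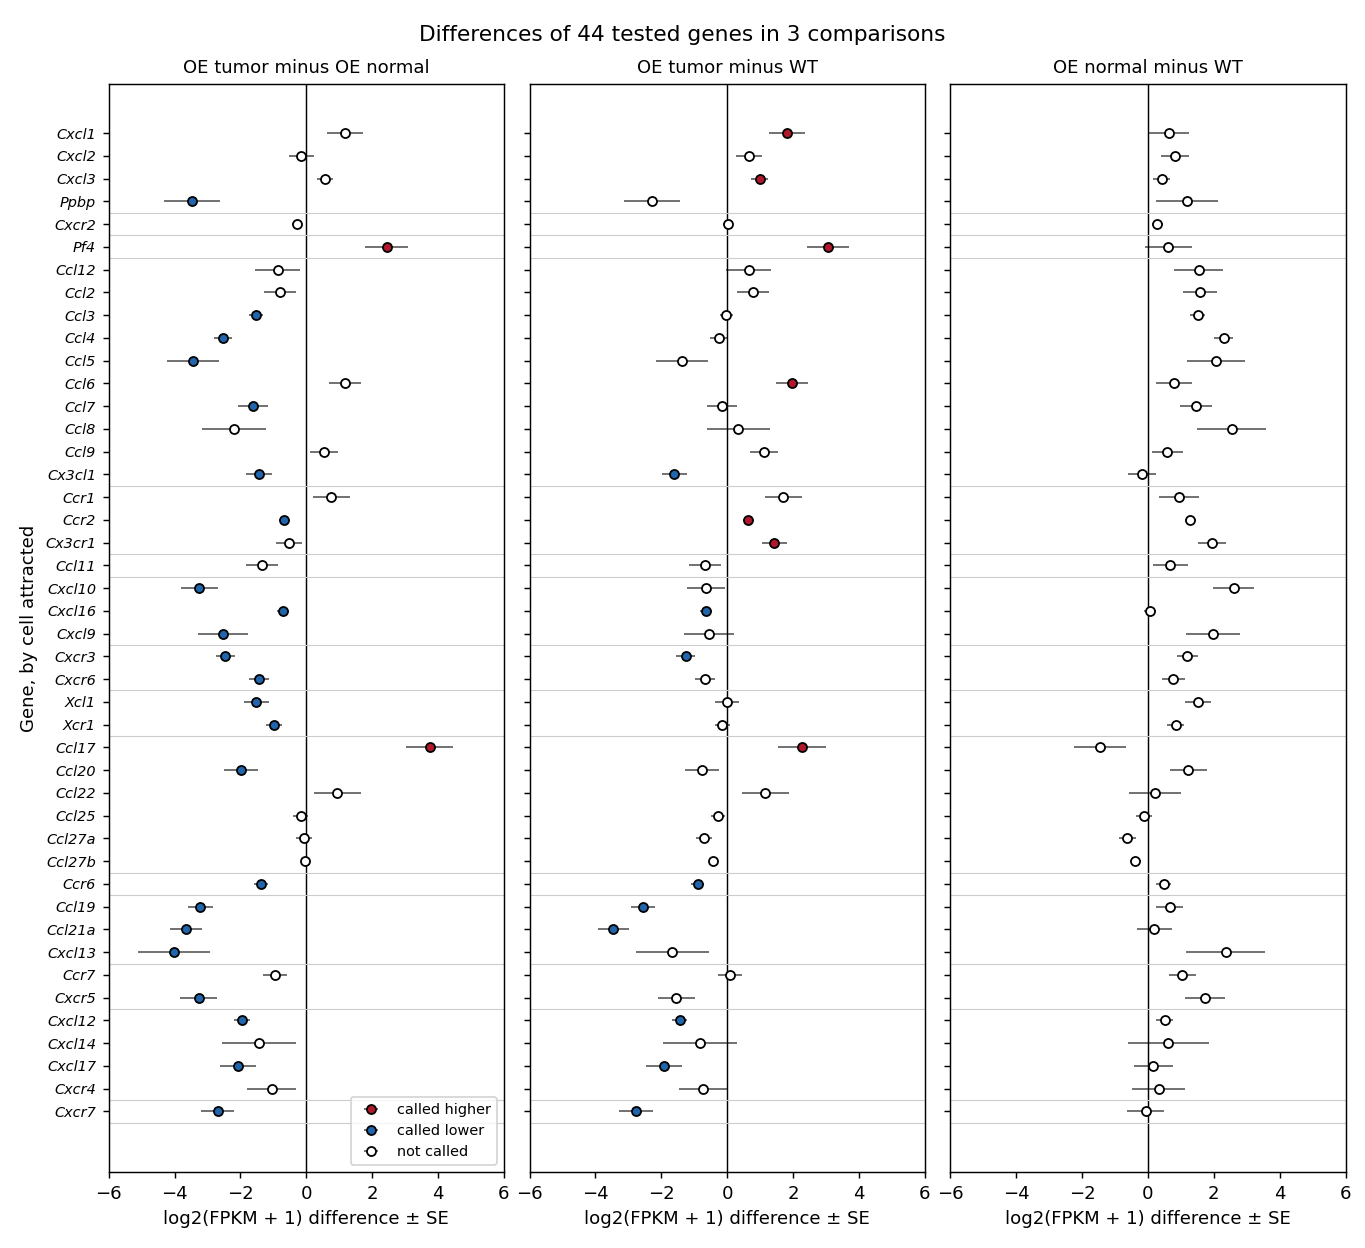
Differences of 44 of the genes tested in each comparison, on the log2(FPKM + 1) scale with standard errors, grouped by the cell attracted; filled points passed an adjusted p below 0.05. The OE tumor minus OE normal panel has 2 points called higher and 23 called lower, the OE tumor minus WT panel has 7 and 9, and the OE normal minus WT panel has none, although 38 of its 44 points lie above 0.

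The size of these counts rested on single libraries. Without OE normal 2, 11 members were called lower than in OE normal lung and 0 higher, and without OE normal 1 there were 15 and 3. Leaving out OE tumor 2 gave 15 lower and 1 higher, leaving out OE tumor 3 gave 14 and 1, leaving out either WT library gave 19 and 1, and leaving out OE tumor 1 gave 27 and 5. Against WT lung, 0 members were called higher without WT 1 or without WT 2 and 3 without OE tumor 3, while 3 were called lower without WT 1, 4 without OE tumor 2 and 14 without OE tumor 1. Under all 17 alternatives that tested them, 9 of the 23 lower calls against OE normal lung were kept (Ccl3, Ccl4, Cxcl10, Cxcr3, Ccr6, Ccl19, Ccl21a, Cxcr5 and Cxcl12) and 3 of the 9 against WT lung (Ccl19, Ccl21a and Cxcl12), but neither of the 2 higher calls against OE normal lung nor any of the 8 against WT lung. Ccl3 reached 1 FPKM only in OE normal lung. It was therefore not tested without OE normal 1 or OE normal 2, and could not lose its call there. Scaling moved the split: quantile normalization gave 5 higher and 18 lower calls against OE normal lung and 12 and 7 against WT lung, where the median member then stood at 0.22, and rescaling to TPM gave 2 and 23 and 8 and 13. Under quantile normalization the median of all genes moved to 0.13 and 0.11 in these comparisons, and under TPM to -0.33 and -0.16. Between tumors and WT lung the female libraries were all tumors. With sex as a covariate there were 7 higher and 7 lower calls against WT lung; those of Cxcl16 (adjusted p = 0.106), Cxcl17 (0.108), Ccl17 (0.184), Pf4, Cxcr3 and Ccr6 were among the ones lost, and Cxcl2 (0.0161), Ccl9 (0.0239), Ccl5 (0.0197) and Cxcr5 (0.0418) were called.

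The neutrophil attractants parted within their own class. Cxcl1, the main mouse ligand of Cxcr2, had 10.8, 2.09 and 3.02 FPKM in OE tumors 1, 2 and 3, 1.17 and 1.48 FPKM in OE normal lung, and 0.532 and 0.452 FPKM in WT lung. All 3 tumors lay above all 4 normal libraries, with OE tumor 1 far ahead. Cxcl1 was called higher than in WT lung (log2 difference 1.82 ± 0.55 SE, adjusted p = 0.0424) but not than in OE normal lung (1.19 ± 0.55, adjusted p = 0.137), where it was called without OE tumor 1 (0.60, adjusted p = 0.0215) and under quantile normalization (0.0229). Cxcl3, a close relative next to Pf4, had 1.49, 0.976 and 1.03 FPKM in OE tumors, 0.879 and 0.115 FPKM in OE normal lung and 0.0981 and 0.0783 FPKM in WT lung. It reached 1 FPKM only in OE tumors 1 and 3, so it entered the fit only through the group where it was high. It too was called higher than in WT lung (0.98 ± 0.24, adjusted p = 0.0230), and without OE normal 1 also higher than in OE normal lung (adjusted p = 0.0282). Ppbp, a platelet-stored precursor of a Cxcr2 ligand, went the other way: it had 0.166, 0.0967 and 0.104 FPKM in OE tumors, 35.1 and 3.31 FPKM in OE normal lung and 7.05 and 2.68 FPKM in WT lung. It was called lower than in OE normal lung (-3.47 ± 0.86, adjusted p = 0.0221) and not than in WT lung (-2.28 ± 0.86, adjusted p = 0.0814).

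Cxcl2 and the neutrophil receptor Cxcr2 passed no test, and the tumor libraries of Cxcr2 (1.27 to 1.61 FPKM) lay just below those of OE normal lung (1.67 and 2.19 FPKM). Cxcl5 and Cxcr1 reached at most 1.03 and 1.64 FPKM in any library and were not tested. Summed over 9 neutrophil markers, OE tumors had 73.2, 579 and 724 FPKM, OE normal lung 241 and 83.3 FPKM and WT lung 31.1 and 21.5 FPKM. Cd177 alone gave 30.6, 568 and 697 FPKM of the tumor sums, nearly all of the sum in OE tumors 2 and 3. Without Cd177 the sum was 42.5, 11.6 and 26.7 FPKM in OE tumors, 231 and 76.1 FPKM in OE normal lung and 28.5 and 19.4 FPKM in WT lung. The granule genes Camp and Ngp stayed under 1 FPKM in every library. Whether neutrophil content had a part in the levels of the attractants was not tested. The Cxcl1 call against WT lung was lost without OE tumor 3 (adjusted p = 0.0669), either OE normal library (0.0760 and 0.0759), WT 1 (0.157) or WT 2 (0.175), and Cxcl3 without OE tumor 2 (0.05001), WT 1 (0.106) or WT 2 (0.117). Ppbp was lost against OE normal lung without OE tumor 2 (0.0583) or OE tumor 3 (0.0595), and gained against WT lung without OE normal 1 (0.00885) or OE normal 2 (0.00900).

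Pf4 (platelet factor 4, Cxcl4) rose against both normal groups. It is best known from platelet granules and is also made by macrophages. Pf4 had 58.5, 222 and 192 FPKM in OE tumors 1, 2 and 3, 38.7 and 14.8 FPKM in OE normal lung, and 15.6 and 15.2 FPKM in WT lung. Every tumor lay above every normal library. The mean was 5.88-fold that of OE normal lung (2.45 ± 0.65, adjusted p = 0.0283) and 10.2-fold that of WT lung (3.06 ± 0.65, adjusted p = 0.0133). The 5 platelet markers other than Pf4 did not follow: Itga2b, Gp9, Gp1bb, Treml1 and Tubb1 summed to 1.06, 0.665 and 0.835 FPKM in OE tumors, 46.7 and 7.16 FPKM in OE normal lung and 10.4 and 7.68 FPKM in WT lung, and all 5 stayed under 1 FPKM in every tumor. Gp9 was at 0 in OE tumors 1 and 2, and the 3 that could be tested fell against OE normal lung, a count of 1 without OE tumor 2, OE tumor 3 or either WT library. Alveolar macrophage markers, 10 genes led by Chi3l3, summed to 1515, 503 and 1037 FPKM in OE tumors, 357 and 291 FPKM in OE normal lung and 192 and 151 FPKM in WT lung. Within the tumors Pf4 was lowest in OE tumor 1, where this sum was highest. Against OE normal lung Chi3l3 and Pparg rose, Krt79 fell and 7 were not called, and neither rise was called without OE tumor 3. Against WT lung 3 rose and Krt79 fell. Without Chi3l3 the other 9 summed to 432, 139 and 173 FPKM in OE tumors, 176 and 124 FPKM in OE normal lung and 99.8 and 83.1 FPKM in WT lung, so OE tumors 2 and 3 then lay below OE normal 1. The part of macrophages in Pf4 was not tested. The Pf4 call against OE normal lung was lost without OE tumor 2 (adjusted p = 0.0739), OE tumor 3 (0.0806), OE normal 2 (0.172), WT 1 (0.0558) or WT 2 (0.0561), and that against WT lung without WT 1 (0.0732) or WT 2 (0.0817), or with sex as a covariate (0.0568).

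Among the 10 monocyte and macrophage ligands, 5 fell against OE normal lung (Ccl3, Ccl4, Ccl5, Ccl7 and Cx3cl1) and none rose, whereas against WT lung Ccl6 rose and Cx3cl1 fell. Among these, Ccl4 and Ccl3, the macrophage inflammatory proteins, had the smallest adjusted p against OE normal lung. Ccl4 had 0.687, 0.183 and 0.836 FPKM in OE tumors 1, 2 and 3, 6.35 and 9.80 FPKM in OE normal lung and 1.07 and 0.589 FPKM in WT lung. Ccl4 differed by -2.53 ± 0.27 from OE normal lung (adjusted p = 0.00116) and Ccl3 by -1.53 ± 0.20 (adjusted p = 0.00229). Ccl3 had 0.588, 0.287 and 0.887 FPKM in OE tumors, 3.53 and 3.51 FPKM in OE normal lung and 0.773 and 0.428 FPKM in WT lung. Ccl3 reached 1 FPKM only in OE normal lung, so it entered the fit only through the group where it was high. For both genes the tumors stood below OE normal lung and overlapped with WT lung. OE tumor 2 lay below both WT libraries for each gene, and OE tumor 3 lay above both for Ccl3.

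Ccl5 (RANTES), which T cells and NK cells also make, had 2.66, 16.6 and 18.0 FPKM in OE tumors 1, 2 and 3, 81.9 and 162 FPKM in OE normal lung and 39.1 and 18.1 FPKM in WT lung. OE tumor 1 was lowest, and all 3 tumors lay under the lower WT library by a margin that for OE tumor 3 was small. The difference was called against OE normal lung (-3.44 ± 0.80, adjusted p = 0.0178) but not against WT lung (-1.37 ± 0.80, adjusted p = 0.218). Ccl6, a rodent Ccr1 ligand made by macrophages, was the most abundant member in OE tumor 1. It had 299, 90.0 and 119 FPKM in OE tumors, 65.6 and 64.1 FPKM in OE normal lung and 43.4 and 31.5 FPKM in WT lung. Every tumor lay above every normal library, with a mean 4.52-fold that of WT lung (1.97 ± 0.49, adjusted p = 0.0234), and 1.17 ± 0.49 above OE normal lung (adjusted p = 0.108; without OE tumor 1, adjusted p = 0.0263). Ccl9, its rodent neighbour, had 18.4, 6.05 and 11.8 FPKM in OE tumors, 8.83 and 5.98 FPKM in OE normal lung and 5.18 and 3.94 FPKM in WT lung, and passed neither test, though it was called higher than in WT lung without OE tumor 2 (adjusted p = 0.0185).

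Cx3cl1 (fractalkine), a membrane-bound ligand of endothelium and epithelium, fell in both comparisons. It had 9.50, 4.73 and 4.53 FPKM in OE tumors 1, 2 and 3, 23.4 and 13.4 FPKM in OE normal lung and 16.1 and 25.0 FPKM in WT lung. No tumor reached the lowest normal library. The differences were -1.43 ± 0.38 (adjusted p = 0.0290) from OE normal lung and -1.61 ± 0.38 (adjusted p = 0.0201) from WT lung. The monocyte chemoattractant protein genes were highest in OE normal 2. Ccl7 had 1.55, 0.707 and 0.722 FPKM in OE tumors, 2.51 and 9.28 FPKM in OE normal lung and 1.32 and 1.05 FPKM in WT lung, and it was the only one of Ccl2, Ccl7, Ccl8 and Ccl12 called (-1.62 ± 0.45 from OE normal lung, adjusted p = 0.0341). Ccl8 had 28.4, 20.0 and 23.4 FPKM in OE tumors, 34.3 and 363 FPKM in OE normal lung and 30.5 and 11.1 FPKM in WT lung. OE normal 2 alone was high, and the difference from OE normal lung was not called with both libraries (-2.20 ± 0.96, adjusted p = 0.119) but was without OE normal 1 (-3.88, adjusted p = 0.0104). Ccl12 had 8.79, 2.79 and 2.33 FPKM in OE tumors, 3.64 and 16.9 FPKM in OE normal lung and 1.98 and 2.32 FPKM in WT lung, and passed no test.

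Among the receptors of monocytes and macrophages, Ccr2 and Cx3cr1 rose in OE tumors against WT lung, and Ccr2 fell against OE normal lung. Ccr2, the receptor that brings monocytes out of the marrow, had 9.33, 7.17 and 9.07 FPKM in OE tumors 1, 2 and 3, 15.0 and 13.1 FPKM in OE normal lung and 5.08 and 5.26 FPKM in WT lung. The 3 groups did not overlap, and the tumors lay between the other two. The difference from OE normal lung was -0.66 ± 0.15 (adjusted p = 0.0168) and that from WT lung 0.62 ± 0.15 (adjusted p = 0.0217). Cx3cr1, the fractalkine receptor, had 6.24, 4.34 and 5.07 FPKM in OE tumors, 13.2 and 4.56 FPKM in OE normal lung and 1.21 and 1.37 FPKM in WT lung (1.43 ± 0.39 against WT lung, adjusted p = 0.0303). The tumors overlapped with OE normal lung and lay above WT lung, and without OE normal 2 Cx3cr1 was called lower than in OE normal lung (adjusted p = 0.0245). Ccr1, the receptor of Ccl6 and Ccl9, had 15.2, 4.72 and 5.33 FPKM in OE tumors, 2.17 and 6.71 FPKM in OE normal lung and 1.71 and 1.43 FPKM in WT lung, and narrowly missed the threshold against WT lung (1.71 ± 0.56, adjusted p = 0.0548). Without OE tumor 1 it was called (1.23, adjusted p = 0.0405).

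Beside these, 7 monocyte markers summed to 96.0, 105 and 124 FPKM in OE tumors. The sums were 387 and 348 FPKM in OE normal lung and 186 and 138 FPKM in WT lung. The tumor sums were the lowest, which for OE tumor 1 leaned on Ly6c2. That gene alone gave 20.5, 76.7 and 87.6 FPKM of the tumor sums and 114 and 71.2 FPKM of the WT sums. Fcgr4 had 12.1 FPKM in OE tumor 1, above both WT libraries (2.76 and 1.38 FPKM). Against WT lung 6 of the 7 differences were below 0 and 1 above, and none was called. The part of monocytes or macrophages was not tested. Single left-out libraries ended several calls in this axis. Against OE normal lung, Ccl5 was lost without OE normal 1 (adjusted p = 0.0589) or OE normal 2 (0.118), and Ccr2 without OE normal 1 (0.117) or OE normal 2 (0.0598). Cx3cl1 was lost there without OE tumor 2 (0.0817), OE tumor 3 (0.0825), OE normal 1 (0.177) or OE normal 2 (0.0513), and Ccl7 without OE tumor 2 (0.0920), OE tumor 3 (0.0926), OE normal 2 (0.108), WT 1 (0.0644) or WT 2 (0.0647). Against WT lung, leaving out WT 1 or WT 2 ended the calls of Ccl6 (0.0801 and 0.142), Ccr2 (0.129 and 0.116), Cx3cr1 (0.143 and 0.128) and Cx3cl1 (0.0536 and 0.138). Leaving out OE tumor 3 also ended those of Ccr2 (0.0719), Cx3cr1 (0.0751) and Cx3cl1 (0.0594), and leaving out OE tumor 2 those of Cx3cr1 (0.0579) and Cx3cl1 (0.0591).

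The effector T and NK cell axis was low in the tumors on both the ligand and the receptor side. All 3 ligands tested (Cxcl9, Cxcl10 and Cxcl16) and both receptors (Cxcr3 and Cxcr6) fell against OE normal lung, and Cxcl16 and Cxcr3 also fell against WT lung. Cxcl10, induced by interferons, had 0.405, 0.276 and 1.04 FPKM in OE tumors 1, 2 and 3, 6.86 and 26.1 FPKM in OE normal lung and 2.38 and 0.714 FPKM in WT lung. Tumors and OE normal lung did not overlap, whereas OE tumor 3 lay above WT 2. The difference from OE normal lung was -3.25 ± 0.57 (adjusted p = 0.00656) and that from WT lung, not called, -0.64 ± 0.57 (adjusted p = 0.406). Cxcl9, which lies near Cxcl10 and is induced mainly by interferon gamma, had 0.827, 0.478 and 1.06 FPKM in OE tumors, 3.14 and 24.3 FPKM in OE normal lung and 2.84 and 0.752 FPKM in WT lung (-2.53 ± 0.76 against OE normal lung, adjusted p = 0.0421). Cxcl11, a further ligand of the same receptor, reached at most 1.05 FPKM and was not tested.

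Cxcr3, the receptor these ligands share, had 0.437, 0.279 and 0.442 FPKM in OE tumors 1, 2 and 3, 5.88 and 7.36 FPKM in OE normal lung and 3.63 and 1.38 FPKM in WT lung. No tumor came near a normal library. The OE normal mean was 17.1-fold and the WT mean 6.50-fold the tumor mean, with differences of -2.45 ± 0.29 (adjusted p = 0.00155) and -1.26 ± 0.29 (adjusted p = 0.0172). Cxcl16, a membrane-bound ligand that macrophages and epithelium make, had a shallower difference, at 19.6, 13.4 and 16.2 FPKM in OE tumors, 24.9 and 29.8 FPKM in OE normal lung and 25.9 and 26.1 FPKM in WT lung. It differed by -0.71 ± 0.18 from OE normal lung (adjusted p = 0.0223) and by -0.65 ± 0.18 from WT lung (adjusted p = 0.0311). Its receptor Cxcr6, carried by tissue-resident T cells, had 1.28, 1.14 and 3.18 FPKM in OE tumors, 6.56 and 6.25 FPKM in OE normal lung and 2.87 and 3.87 FPKM in WT lung (-1.44 ± 0.31 against OE normal lung, adjusted p = 0.0142). OE tumor 3 lay between the WT libraries, and without it Cxcr6 was also called lower than in WT lung (-0.97, adjusted p = 0.0170).

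Xcl1, which NK and CD8+ T cells make, and its receptor Xcr1, found on cross-presenting dendritic cells, both fell against OE normal lung. Xcl1 had 0.281, 0.111 and 0.590 FPKM in OE tumors 1, 2 and 3, 1.502 and 4.62 FPKM in OE normal lung and 0.515 and 0.135 FPKM in WT lung (-1.51 ± 0.37 against OE normal lung, adjusted p = 0.0208). It reached 1 FPKM only in OE normal lung, so it entered the fit only through the group where it was high. Without OE normal 1 or OE normal 2 it was not tested. Xcr1 had 0.969, 0.556 and 0.657 FPKM in OE tumors, 1.70 and 3.24 FPKM in OE normal lung and 1.13 and 0.686 FPKM in WT lung (-0.98 ± 0.24 against OE normal lung, adjusted p = 0.0216). For both genes the tumors overlapped with WT lung. Clec9a, a marker of the same dendritic cells, was among 3 of 6 dendritic cell markers that fell in both comparisons (Itgax rose against WT lung), and the 6 summed to 36.0, 17.5 and 23.7 FPKM in OE tumors, 48.8 and 34.5 FPKM in OE normal lung and 36.3 and 31.8 FPKM in WT lung.

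T cell markers summed to 7.21, 8.57 and 14.0 FPKM in OE tumors, 47.0 and 80.8 FPKM in OE normal lung and 34.5 and 19.4 FPKM in WT lung; all 7 fell against OE normal lung and 3 against WT lung, where the count was 0 without WT 1 and 1 without OE tumor 2 or either OE normal library. NK cell markers summed to 1.63, 7.39 and 9.82 FPKM in OE tumors, 25.8 and 47.2 FPKM in OE normal lung and 15.2 and 12.4 FPKM in WT lung. Eomes alone gave 6.54 and 7.33 FPKM of these sums in OE tumors 2 and 3; without it the tumor sums were 1.56, 0.855 and 2.49 FPKM. Of the 5 NK cell markers tested, 4 fell in both comparisons, a count of 2 against WT lung without WT 1. Prf1, an NK cell marker that fell in both, reached 1 FPKM only in OE normal lung, so it entered the fit only through that group. The part of lymphocyte content in the levels of these ligands and receptors was not tested. Under quantile normalization, Cxcl9 (adjusted p = 0.0901), Xcl1 (0.120) and Xcr1 (0.276) lost their calls against OE normal lung. Cxcl9 lost its call against OE normal lung without OE tumor 2 (adjusted p = 0.106), OE tumor 3 (0.0858), OE normal 2 (0.139), WT 1 (0.0622) or WT 2 (0.0626), and Cxcl16 did so under each left-out library except OE tumor 1 (0.0517 to 0.143). Cxcr6 lost it without OE normal 1 (0.0836) or OE normal 2 (0.0767), Xcl1 without OE tumor 2 (0.0627), and Xcr1 without OE tumor 2 (0.0673), OE tumor 3 (0.0642) or OE normal 2 (0.115). Against WT lung, Cxcr3 was lost without OE tumor 2 (0.0534) or WT 1 (0.0588), with sex as a covariate (0.0501) or under quantile normalization (0.0901), and Cxcl16 under each left-out library except OE tumor 1 (0.0501 to 0.153).

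Of the ligands for Th2, regulatory and barrier-homing lymphocytes, Ccl17 rose in both comparisons and Ccl20 fell against OE normal lung, while Ccl22, Ccl25, Ccl27a and Ccl27b passed no test. Ccl17 (TARC), a Ccr4 ligand that dendritic cells make, had the largest positive difference of any member. It had 26.8, 105 and 146 FPKM in OE tumors 1, 2 and 3, 6.70 and 3.13 FPKM in OE normal lung and 17.6 and 12.1 FPKM in WT lung. Every tumor lay above every normal library, and OE normal lung lay below WT lung. The tumor mean was 18.9-fold that of OE normal lung (3.75 ± 0.72, adjusted p = 0.00909) and 6.25-fold that of WT lung (2.28 ± 0.72, adjusted p = 0.0494). Ccl22, the other ligand of Ccr4, had 2.31, 12.8 and 14.1 FPKM in OE tumors, 4.23 and 3.05 FPKM in OE normal lung and 4.76 and 1.70 FPKM in WT lung. OE tumors 2 and 3 lay above every normal library and OE tumor 1 did not, and the gene was called only without OE tumor 1 (1.65 against OE normal lung, adjusted p = 0.00965; 1.87 against WT lung, adjusted p = 0.00626). Ccr4, the receptor for both, was not tested.

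Ccl20, the ligand of Ccr6 that epithelium makes, had 0.770, 0.141 and 0.757 FPKM in OE tumors 1, 2 and 3, 4.32 and 5.91 FPKM in OE normal lung and 3.73 and 0.422 FPKM in WT lung. Tumors and OE normal lung did not overlap (-1.99 ± 0.51, adjusted p = 0.0253), and WT 2 lay among the tumors. Ccr6, carried by B cells and Th17 cells, had 0.457, 0.367 and 0.540 FPKM in OE tumors, 3.54 and 2.17 FPKM in OE normal lung and 2.09 and 1.38 FPKM in WT lung. It fell in both comparisons, by -1.38 ± 0.21 against OE normal lung (adjusted p = 0.00361) and -0.90 ± 0.21 against WT lung (adjusted p = 0.0179). Ccl27a, a skin-homing attractant, had 7.51, 6.35 and 4.79 FPKM in OE tumors, 7.66 and 5.46 FPKM in OE normal lung and 12.3 and 9.04 FPKM in WT lung (-0.70 ± 0.24 against WT lung, adjusted p = 0.0614). Its reads may be shared with the near-identical Ccl27b, so the split between them is uncertain. Under quantile normalization Ccl20 lost its call against OE normal lung (adjusted p = 0.0582). The Ccl17 call against OE normal lung was lost without OE normal 2 (adjusted p = 0.0717). Against WT lung Ccl17 was lost in 14 of the 17 alternatives, among them each left-out library except OE tumor 1 (0.0758 to 0.222). Ccl20 was lost without OE tumor 2 (0.0717), OE tumor 3 (0.0557), OE normal 1 (0.0907) or OE normal 2 (0.141), and Ccr6 against WT lung without OE tumor 2 (0.0578) or WT 1 (0.120), with sex as a covariate (0.0692) or under quantile normalization (0.249). Without WT 2, Ccl20 was also called lower than in WT lung (0.0332). Without OE tumor 1, Ccl27a was called lower than in WT lung (0.0200), and so was Ccl27b (0.0225).

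The lymphoid homing ligands had a median difference of -3.65 from OE normal lung and -2.56 from WT lung. The 3 tested ligands (Ccl19, Ccl21a and Cxcl13) and the receptor Cxcr5 fell against OE normal lung, and Ccl19 and Ccl21a also fell against WT lung. Ccl19, a Ccr7 ligand of stroma and dendritic cells, had 0.605, 0.465 and 2.22 FPKM in OE tumors 1, 2 and 3, 17.4 and 17.1 FPKM in OE normal lung and 13.2 and 8.42 FPKM in WT lung. Every tumor lay far below every normal library. The OE normal mean was 15.7-fold and the WT mean 9.86-fold the tumor mean, with differences of -3.22 ± 0.38 (adjusted p = 0.00151) and -2.56 ± 0.38 (adjusted p = 0.00345). Ccl21a, the other Ccr7 ligand, had 5.43, 0.991 and 2.71 FPKM in OE tumors, 37.6 and 52.8 FPKM in OE normal lung and 34.7 and 43.3 FPKM in WT lung. The groups were as far apart as for Ccl19, by -3.65 ± 0.47 from OE normal lung (adjusted p = 0.00220) and -3.46 ± 0.47 from WT lung (adjusted p = 0.00273). Ccl21c, a near-identical copy, was listed at 0 in every library, so reads of the copies may have been assigned to Ccl21a.

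Cxcl13, the attractant of B cell follicles, had 10.0, 0.301 and 0.645 FPKM in OE tumors 1, 2 and 3, 18.3 and 110.4 FPKM in OE normal lung and 8.93 and 7.28 FPKM in WT lung. OE normal 2 and OE tumor 1 were high within their groups, and OE tumor 1 lay above both WT libraries. Its difference from OE normal lung was the largest negative one of any member but also had the widest error among those called (-4.02 ± 1.10, adjusted p = 0.0320). Cxcr5, its receptor on B cells and follicular T cells, was nearly absent from the tumors, at 0.0244, 0.0354 and 0.0672 FPKM, with 4.06 and 19.0 FPKM in OE normal lung and 2.78 and 1.44 FPKM in WT lung. The groups did not overlap, and Cxcr5 differed by -3.27 ± 0.55 from OE normal lung (adjusted p = 0.00561) and by -1.54 ± 0.55 from WT lung (adjusted p = 0.0712). Ccr7, which directs naive T cells and mature dendritic cells to lymph nodes, had 1.21, 3.64 and 3.97 FPKM in OE tumors, 6.55 and 5.81 FPKM in OE normal lung and 2.86 and 2.12 FPKM in WT lung, and was not called (-0.95 ± 0.37 against OE normal lung, adjusted p = 0.0872). OE tumor 1 lay below WT lung and the other tumors above it.

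B cell markers moved alongside, at 8.03, 17.8 and 18.7 FPKM summed over 6 genes in OE tumors. The sums were 135 and 493 FPKM in OE normal lung and 76.4 and 36.4 FPKM in WT lung. Cd79b alone gave 16.4 and 16.4 FPKM of the sums in OE tumors 2 and 3. That lay above its 12.0 FPKM in WT 2 and below its 23.6 FPKM in WT 1. Ms4a1 and Pax5 were under 1 FPKM in every tumor. All 6 fell against OE normal lung and 3 against WT lung, where the count was 0 without WT 1. Lymphatic endothelial markers summed to 6.29, 3.49 and 4.98 FPKM in OE tumors, 87.4 and 152 FPKM in OE normal lung and 208 and 194 FPKM in WT lung, and their 3 tested genes fell in both comparisons. The part of either cell type in the homing genes was not tested. Cxcl13 lost its call against OE normal lung without OE tumor 2 (adjusted p = 0.0830), OE tumor 3 (0.0882), OE normal 2 (0.188), WT 1 (0.0609) or WT 2 (0.0611), and was called against WT lung without OE tumor 1 (-2.63, adjusted p = 0.0292). Without OE tumor 1, Ccr7 was called lower than in OE normal lung (-0.58, adjusted p = 0.0130) and higher than in WT lung (0.47, adjusted p = 0.0276). Cxcr5 was called lower than in WT lung without OE normal 1 (0.00729) or OE normal 2 (0.00712).

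**Figure D3:**
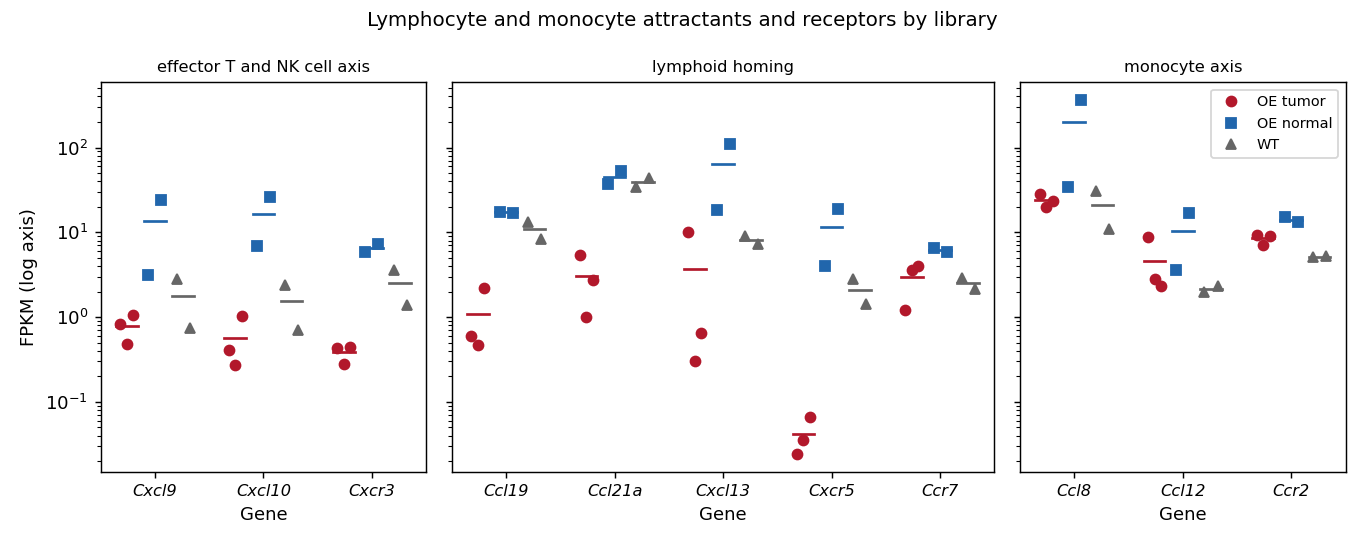
FPKM on a log axis for genes of 3 chemokine axes, each point a library and each bar a group mean, in the order OE tumor, OE normal and WT. Cxcr3, Ccl19, Ccl21a and Cxcr5 are lowest in all 3 OE tumors, Cxcl9, Cxcl10, Cxcl13, Ccl8 and Ccl12 are highest in OE normal 2, and Ccr2 is lowest in WT lung.

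Of the 4 progenitor and homeostatic genes, Cxcl12 and Cxcl17 fell in both comparisons, and Cxcl14 and Cxcr4 passed no test. Cxcl12 (SDF-1), which stroma and endothelium make, had 26.8, 14.7 and 21.0 FPKM in OE tumors 1, 2 and 3, 80.5 and 82.1 FPKM in OE normal lung and 55.1 and 58.5 FPKM in WT lung. The 3 groups did not overlap. Cxcl12 differed by -1.95 ± 0.24 from OE normal lung (adjusted p = 0.00170) and by -1.44 ± 0.24 from WT lung (adjusted p = 0.00509). Cxcl17, a mucosal chemokine of airway epithelium, had 15.4, 3.29 and 6.33 FPKM in OE tumors, 36.3 and 29.6 FPKM in OE normal lung and 35.9 and 23.9 FPKM in WT lung, with differences of -2.07 ± 0.54 from OE normal lung (adjusted p = 0.0265) and -1.92 ± 0.54 from WT lung (adjusted p = 0.0344). No tumor reached a normal library for either ligand. Epithelial markers summed to 3665, 7688 and 7465 FPKM in OE tumors, 1692 and 1069 FPKM in OE normal lung and 1865 and 1561 FPKM in WT lung.

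Cxcr4, the receptor of Cxcl12, and Cxcl14, a ligand of epithelium and fibroblasts, divided the tumors. Cxcr4 had 48.3, 9.91 and 7.04 FPKM in OE tumors 1, 2 and 3, 28.6 and 37.6 FPKM in OE normal lung and 25.0 and 27.01 FPKM in WT lung. Cxcl14 had 91.9, 6.99 and 6.21 FPKM in OE tumors, 65.1 and 33.1 FPKM in OE normal lung and 29.5 and 30.4 FPKM in WT lung. For both, OE tumor 1 was the highest of all 7 libraries and OE tumors 2 and 3 were the lowest. Neither was called with all libraries (Cxcr4 -1.05 ± 0.74 against OE normal lung, adjusted p = 0.302; Cxcl14 -1.44 ± 1.12, adjusted p = 0.345). Without OE tumor 1, Cxcr4 was called lower than in OE normal lung (-1.85, adjusted p = 6.39e-04) and WT lung (-1.53, adjusted p = 0.00129), and so was Cxcl14 (-2.64, adjusted p = 8.81e-04, and -2.03, adjusted p = 0.00235). Fibroblast markers were also highest in OE tumor 1 among the tumors, at 401, 72.7 and 103 FPKM. OE normal lung had 457 and 595 FPKM and WT lung 448 and 569 FPKM. Mfap4 alone gave 203 and 357 FPKM of the OE normal sums and 226 and 327 FPKM of the WT sums. In OE tumor 1 it had 25.5 FPKM. Col1a1, Col1a2, Col3a1 and Dcn were higher in OE tumor 1 than in every normal library. Pdgfra and Mfap4 were lower there, and Lum lay between. The part of fibroblasts was not tested. Cxcl17 lost its call against OE normal lung without OE tumor 3 (adjusted p = 0.0731), OE normal 1 (0.139) or OE normal 2 (0.104), and against WT lung under each left-out library except OE tumor 1 (0.0563 to 0.182).

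The scavenging receptor that the naming rule caught, Cxcr7, fell in both comparisons. Cxcr7 is the older symbol of Ackr3, which removes Cxcl12. It had 4.69, 1.42 and 2.44 FPKM in OE tumors 1, 2 and 3, 13.1 and 38.0 FPKM in OE normal lung and 23.5 and 23.5 FPKM in WT lung. The tumors lay below every normal library, with differences of -2.69 ± 0.51 from OE normal lung (adjusted p = 0.00858) and -2.76 ± 0.51 from WT lung (adjusted p = 0.00813). Other atypical receptors, and the chemerin receptor Cmklr1, lie outside the naming rule. All 5 that could be tested (Darc, Ccbp2, Ccrl1, Ccrl2 and Cmklr1) fell against OE normal lung, beside 24.9% of all genes. Against WT lung 4 fell, all but Darc, beside 23.2% of all genes. Under quantile normalization 3 fell against OE normal lung, while against WT lung 4 fell and 1 rose. Ccbp2 (Ackr2), which clears inflammatory CC chemokines, had 0.935, 2.10 and 2.21 FPKM in OE tumors, 13.7 and 22.0 FPKM in OE normal lung and 26.9 and 37.7 FPKM in WT lung (-2.78 ± 0.32, adjusted p = 0.00137, and -3.61 ± 0.32, adjusted p = 5.50e-04). Ccrl2, which presents chemerin to its receptor Cmklr1, had 2.89, 0.761 and 1.28 FPKM in OE tumors, 22.9 and 15.3 FPKM in OE normal lung and 15.3 and 14.7 FPKM in WT lung (-2.98 ± 0.35, adjusted p = 0.00160, and -2.68 ± 0.35, adjusted p = 0.00235). Endothelial markers summed to 118, 90.4 and 105 FPKM in OE tumors, 1212 and 1113 FPKM in OE normal lung and 1356 and 1611 FPKM in WT lung, and all 8 fell in both comparisons; their part was not tested. The Cxcr7 call against WT lung was lost without WT 1 (adjusted p = 0.0538) or WT 2 (0.0577).

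Eosinophil attractants were few and low. Ccl11 (eotaxin) had 3.37, 0.604 and 3.81 FPKM in OE tumors 1, 2 and 3, 6.31 and 8.35 FPKM in OE normal lung and 3.50 and 4.92 FPKM in WT lung, and was not called (-1.36 ± 0.49 against OE normal lung, adjusted p = 0.0730). It was called without OE tumor 1 (adjusted p = 0.0390) or OE tumor 2 (0.0432), and OE tumor 2 was the lowest of the 7 libraries. Ccl24 and the eosinophil receptor Ccr3 were not tested and Ccl26 was listed at 0 throughout. Eosinophil markers summed to 1.23, 0.258 and 1.04 FPKM in OE tumors, 15.9 and 18.0 FPKM in OE normal lung and 6.77 and 7.60 FPKM in WT lung, and Epx was at 0 in all tumors. In all, 13 members were not tested, none of them above 1.64 FPKM in any library, and 3 of these (Ccl21c, Ccl26 and Ccl28) were listed at 0 in all 7. Ccl1 was listed at 0 in both WT libraries.

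Genes that lie side by side on a chromosome did not all move together. By gene order in RefSeq, Ppbp, Pf4 and Cxcl3 are neighbours on chromosome 5 with no protein-coding gene between them. In the tumors Ppbp had at most 0.166 FPKM while Pf4 next to it had at least 58.5 FPKM, and in OE normal 1 the values were 35.1 and 38.7 FPKM. On chromosome 8, Ccl22, Cx3cl1 and Ccl17 are neighbours, and there Cx3cl1 fell and Ccl17 rose in the same tumors. On chromosome 11, Ccl5, Ccl9, Ccl6, Ccl3 and Ccl4 follow one another. Against OE normal lung, Ccl5, Ccl3 and Ccl4 fell, while Ccl6 between them, not called there, had every tumor above every OE normal library. Other neighbours moved alike in that comparison. Cxcl9 and Cxcl10, with 1 protein-coding gene between them, both fell, and so did Cxcr6 and Xcr1 on chromosome 9. Also on chromosome 11, Ccl2, Ccl7, Ccl11, Ccl12 and Ccl8 all had tumor means below the OE normal means, with only Ccl7 called.

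**Figure D4:**
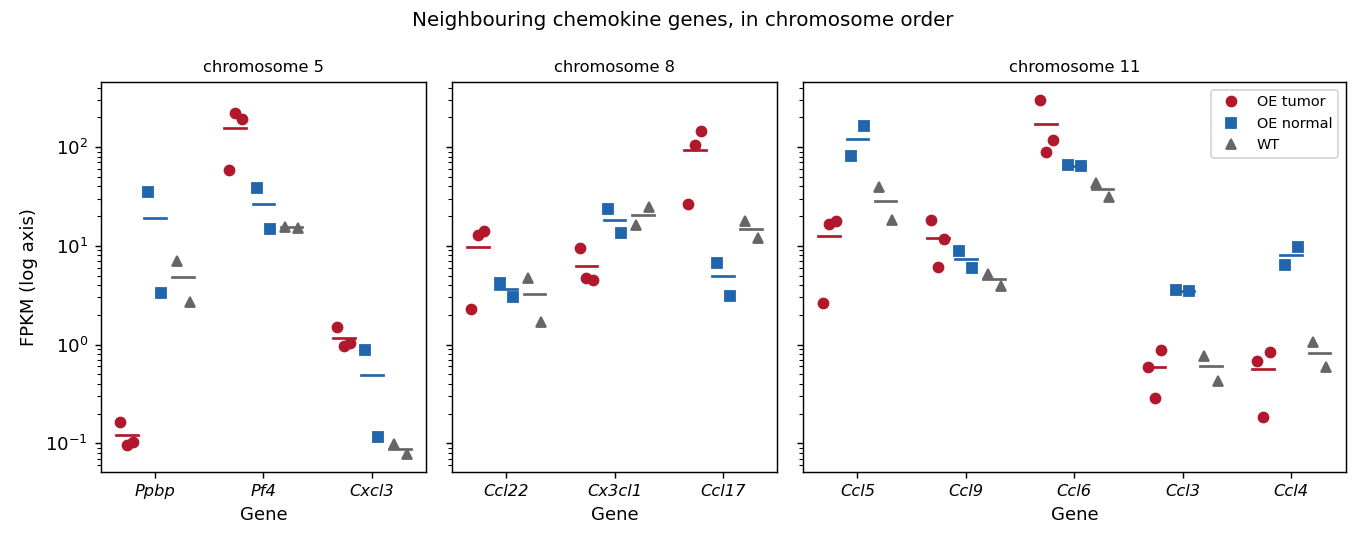
FPKM on a log axis for neighbouring chemokine genes in chromosome order, each point a library and each bar a group mean, in the order OE tumor, OE normal and WT. Ppbp (0.0967 to 0.166 FPKM) and Pf4 (58.5 to 222 FPKM) lie at opposite ends of the scale in the OE tumors, Ccl17 is high beside a low Cx3cl1, and Ccl6 is high beside low Ccl3 and Ccl4.

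OE normal lung differed from WT lung in no member at the adjusted threshold, with 0 of 45 called in either direction (0.0% of all genes were called). At an unadjusted p below 0.05, limma gave 13 members higher in OE normal lung and 0 lower (28.9% of members for the higher ones, beside 6.13% of all genes). The median member stood 0.79 above WT lung, beside 0.02 for all genes, and 39 of 45 differences were above 0. Both OE normal libraries lay above both WT libraries for 33 members (73.3%, beside 29.6% of all genes), and below them for Ccl17, Ccl27a and Ccl27b (6.67%, beside 23.1%). Ccl4 had the smallest p with Ccr2, at 2.30 ± 0.30 above WT lung (adjusted p = 0.144), and Ccr2 was 1.28 ± 0.17 above it (adjusted p = 0.144). Cxcl10 differed by 2.60 ± 0.63 (adjusted p = 0.278), Ccl8 by 2.54 ± 1.05 (adjusted p = 0.583) and Cxcl13 by 2.36 ± 1.21 (adjusted p = 0.708). The last 3 differences are carried largely by OE normal 2, the library with 26.1 FPKM of Cxcl10, 363 FPKM of Ccl8 and 110.4 FPKM of Cxcl13, and with the highest B cell marker sum. Leaving out OE tumor 1, which belongs to neither group, called 4 members higher in OE normal lung than in WT lung: Ccl3 (adjusted p = 0.0478), Ccl4 (0.0430), Ccr2 (0.0388) and Ccr7 (0.0432). That setting called 214 of all 13969 genes higher and 88 lower, where the main fit called 0 in each direction.

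Signalling genes downstream of the receptors were mostly lower in OE tumors than in OE normal lung. Of 24 signalling genes, 1 rose (Gnai3; 4.17%, beside 13.1% of all genes) and 14 fell (58.3%, beside 24.9%) against OE normal lung, with a median of -1.31. Against WT lung 1 rose (Gnai3; beside 15.0% of all genes) and 4 fell (among them Arrb1, Gnai2 and Gng2; 16.7%, beside 23.2%), with a median of -0.19. Arrb1, a beta-arrestin that uncouples receptors from G proteins, had 9.59, 9.68 and 9.67 FPKM in OE tumors 1, 2 and 3, 41.8 and 36.3 FPKM in OE normal lung and 39.6 and 37.9 FPKM in WT lung. The tumors were nearly identical to each other and far below both normal groups (-1.91 ± 0.11, adjusted p = 2.89e-04, and -1.90 ± 0.11, adjusted p = 2.32e-04). Rac2 (-2.08) and Dock2 (-1.83), which drive actin movement in leukocytes, fell against OE normal lung, but both lost the call without OE normal 2 and Dock2 also without OE normal 1. Gnai3 kept its call in both comparisons only where OE tumor 1 was the library left out. The count of 14 was 3 without OE normal 2, 7 without OE normal 1 and 9 without OE tumor 3. The count of 4 against WT lung was 2 without WT 1 or WT 2 and 12 without OE tumor 1.

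Genes that induce chemokines were mostly lower in OE tumors than in OE normal lung. Of 21 tested, 2 rose against OE normal lung (Ltbr and Tlr4, 9.52%, beside 13.1% of all genes). There 12 fell (57.1%, beside 24.9%), and the median was -0.83. Against WT lung 1 rose (Tlr4, 4.76%, beside 15.0%) and 8 fell (38.1%, beside 23.2%), with a median of -0.23. Ltb, the lymphotoxin chain that maintains lymphoid stroma, had 2.93, 1.27 and 2.59 FPKM in OE tumors 1, 2 and 3, 29.6 and 46.6 FPKM in OE normal lung and 14.7 and 8.36 FPKM in WT lung (-3.59 ± 0.35, adjusted p = 8.54e-04, and -1.93 ± 0.35, adjusted p = 0.00774). The interferon-pathway factors Irf7 (-2.93) and Irf1 (-1.97) fell against OE normal lung. Nfkbia, the inhibitor and target of NF-kB, fell by 1.77 on the log2 scale against WT lung. Tlr4, the lipopolysaccharide receptor, had 14.6, 13.7 and 11.1 FPKM in OE tumors, 5.14 and 5.72 FPKM in OE normal lung and 4.30 and 4.18 FPKM in WT lung. All tumors lay above all normal libraries (1.13 ± 0.15, adjusted p = 0.00238, and 1.43 ± 0.15, adjusted p = 0.00109). Ltbr lost its call without OE tumor 2, OE tumor 3 or OE normal 2. The count of 12 was 7 without OE normal 1, and the count of 8 was 2 without WT 1, 4 without WT 2 and 5 without OE tumor 2 or OE tumor 3.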

How the data were processed

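RNA of 7 mouse lung libraries (3 OE tumor, 2 OE normal, 2 WT) was sequenced and deposited as 1 table per library. The deposited values are FPKM per gene, which the authors made on build mm9; the submitters' processing notes name TopHat2 and Cufflinks 2.0.0. The sources used here give no annotation, strand setting or number of reads, so depth is known only relative to OE tumor 1 and antisense or overlapping genes cannot be told apart. Of 22474 rows, 27 whose symbols had been turned into dates were left out.

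The 14057 genes that reached 1 FPKM in 2 or more libraries were fitted as log2(FPKM + 1) in limma 3.58.1 under R 4.3.3, with 3 groups, a mean-variance trend and 2-sided tests. Benjamini-Hochberg adjusted p-values below 0.05 over all genes made a call. A fold change on this scale understates that of low genes. The fit was also run on simulated data with known answers, in which few genes were changed. There it recovered 43.9%, 89.4% and 93.7% of genes whose FPKM + 1 was changed 2, 4 and 8-fold between OE tumor and OE normal. For a low gene the same fold change of FPKM is a smaller step on this scale, so these shares do not hold for it. Between OE tumor and WT it recovered 42.2%, 86.6% and 93.4%. The 17 alternatives were another pseudocount (0.1), no filter, a filter at 5 FPKM, 3 other scalings, no trend, a replicate block, sex as a covariate, only the groups compared, and each of the 7 libraries left out.

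A member is given by library where its highest group mean reached 5 FPKM, or 2 FPKM with a call, and Cxcl3 was added after its values were seen. From each list of other pathway genes, up to 4 called genes with the largest differences were named; Darc, Ccrl1, Cmklr1 and single marker genes are named beside counts and were chosen after their values were seen. The members and lists were chosen with earlier results of these data known. Ccl21b, Cxcl15 and the Ackr symbols were not analysed here, and a few genes that enter the counts and sums are not reported here. Figures were drawn with matplotlib 3.10.9 in Python 3.11.15.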

Additional observations from a re-analysis of the deposited data

How the results depend on the processing

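All 17 alternatives were planned. Against OE normal lung, the 2 higher calls became 5 under quantile normalization, 4 with sex as a covariate, and 1 with the replicate block or with only the groups compared; with a library left out they ranged from 0 to 5. The 23 lower calls became 15 with the filter at 5 FPKM, which tests 30 of the members, and 13 with the replicate block, and ranged from 11 to 27 with a library left out. Against WT lung, the 8 higher calls became 1 with the replicate block and ranged from 0 to 10 with a library left out, and the 9 lower calls ranged from 3 to 14. OE normal lung against WT lung ranged from 0 to 4 higher calls, the 4 without OE tumor 1, where 214 of all genes were called higher. The cause of these changes was not tested. Ccl27b turned its direction between OE tumor and OE normal lung under quantile normalization (0.61, adjusted p = 0.0155). Over single genes, 1958 of the other values kept direction and side of the threshold, 154 lost the call, 55 gained one and 58 that were not called either way changed sign. Correlations between same-numbered libraries of their deviations from the group means ran from -0.03 to 0.03. In a group of 2 libraries these deviations mirror each other, so the correlations cannot show that pairing is absent. All libraries numbered 1 were placed as male, and OE tumor 2 and OE normal 2 as female, so the number partly follows sex. Only OE tumor 3 carries the number 3, so the block also takes that tumor out of the differences. Over all genes, calls in OE tumor against OE normal lung were 1844 higher and 3506 lower, and 814 and 2316 with the block, 719 and 2158 without OE normal 2, and 3745 and 5859 without OE tumor 1. With 2 libraries in each normal group, genes with a 2-fold difference can be missed in these comparisons. The simulation recovered 43.9% and 42.2% of genes whose FPKM + 1 was changed 2-fold. It changed far fewer genes than were called here, so its shares need not carry over. Low genes are limited further by the unknown read totals.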

Other observations

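Of 8 tested genes that cut chemokines or hold them on cell surfaces, Dpp4, Mmp12, Sdc1 and Sdc4 rose in OE tumors against both OE normal and WT lung, Ndst1 fell against both, and Mmp9 fell against OE normal lung. Those that rose made up 50% in each comparison, beside 13.1% and 15.0% of all genes. Those that fell made up 25% and 12.5%, beside 24.9% and 23.2% of all genes. The count of 4 that rose was 3 without OE normal 2 against OE normal lung and 3 without WT 1 or WT 2 against WT lung, and 5 without OE normal 1. Mmp12, macrophage elastase, had 19.6, 15.7 and 35.1 FPKM in OE tumors 1, 2 and 3, 2.36 and 1.71 FPKM in OE normal lung and 1.70 and 1.08 FPKM in WT lung. It differed by 2.94 ± 0.34 from OE normal lung (limma adjusted p = 0.00151) and by 3.29 ± 0.34 from WT lung (adjusted p = 0.00105). Sdc4, a heparan sulfate proteoglycan that binds chemokines, had 275, 199.5 and 186 FPKM in OE tumors, 54.3 and 45.8 FPKM in OE normal lung and 64.5 and 57.9 FPKM in WT lung. Dpp4, a peptidase that trims the amino end of several chemokines, had 41.4, 82.0 and 72.5 FPKM in OE tumors, 21.3 and 18.6 FPKM in OE normal lung and 25.2 and 21.0 FPKM in WT lung. For all of these every tumor lay above every normal library.

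Among receptors for other chemoattractants, 9 were tested. S1pr1, the sphingosine 1-phosphate receptor that lets lymphocytes leave lymphoid tissue and is abundant on endothelium, had 10.1, 6.74 and 7.02 FPKM in OE tumors, 83.7 and 142 FPKM in OE normal lung and 139 and 132 FPKM in WT lung. It fell in both comparisons (-3.64 ± 0.26 against OE normal lung, adjusted p = 3.73e-04, and -3.95 ± 0.26 against WT lung, adjusted p = 2.74e-04). Gpr183 fell against OE normal lung, and C3ar1 and Cysltr1 rose against WT lung, a count of 2 that was 1 without WT 1 and 0 without WT 2.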
